A study of Mus musculus with 12 samples.

Results

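The livers described here came from bile-duct-ligated mice without factor VII-activating protease (FSAP) and from ligated wild-type (WT) littermates, 3 mice of each genotype and 6 of the 12 mice of the study. They were chosen by their titles, which give genotype and surgery. Each mouse gave 1 one-colour array, and the comparison is FSAP-deficient minus WT over 18706 genes whose signal stood well above background on 3 or more of these 6 arrays. The remaining 6 arrays, 3 sham-operated mice of each genotype, served to estimate the spread and to set the ligated values beside those of unligated livers.

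All mice were on a BALB/c background reached by backcrossing the null allele up to generation F3, and both genotypes were bred from heterozygous parents. They were 20 to 30 weeks old, and livers were frozen 2 weeks after the common bile duct was tied off or after the same operation without the tie. The FSAP-deficient mice carry the null allele in every tissue, so the comparison holds the effect on the liver and on every other organ together. After generation F3 part of the genome can still come from the strain in which the allele was made, which the labels do not name. The labels also give neither the deleted part of the gene nor the sex of the mice.

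FSAP is a serine protease of blood plasma, encoded by Habp2 and made mainly by hepatocytes. It can activate coagulation factor VII and pro-urokinase and can cleave the growth factor PDGF-BB, a mitogen of stellate cells and smooth muscle cells. Blocked bile flow injures hepatocytes, makes bile ducts proliferate, draws in leukocytes and turns stellate cells into collagen-producing myofibroblasts. Because whole liver was measured, a lower level can mean fewer cells of a type or less RNA per cell, and the data cannot tell these apart.

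Levels below are log2 of the background-subtracted signal minus the array's own 75th percentile, so that 0 is the 75th percentile of that array. Values of single arrays are given in the order of replicates 1, 2 and 3. A gene is said to have risen, fallen or changed where limma's two-sided test, in a model of all 4 groups, gave an adjusted p (Benjamini-Hochberg over the 18706 genes) under 0.05. The gap is the distance between the lowest array of the higher genotype and the highest array of the lower one, and genotypes with a gap above 0 do not overlap.

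Habp2 separated the genotypes more widely than any other gene tested. Its brighter probe (19:56394519-56394578, mm9) stood at 5.15, 5.03 and 4.97 in the WT ligated livers and at -7.18, -6.98 and -6.95 in the FSAP-deficient ones, none of which was well above background. The level was therefore at least 1180-fold lower, with a gap of 11.92 (limma, adjusted p = 1.96e-05). A second Habp2 probe, listed under the transcript identifier ENSMUST00000078284, was at least 39.6-fold lower and was also not well above background on the FSAP-deficient ligated arrays. The labels do not state if these probes fall within the deletion. In sham livers replicate 1 of the FSAP-deficient group read -3.45 at the first probe and was well above background. The other FSAP-deficient sham arrays, at -6.74 and -6.72, were not. At the second probe replicate 1 read -7.41 and was not well above background. The cause was not tested.

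Several properties of the arrays divide the ligated groups. The Y-linked genes Ddx3y, Eif2s3y and Uty were well above background and Xist was not on FSAP-deficient ligated replicates 1 and 2 and on FSAP-deficient sham replicate 1, whereas FSAP-deficient ligated replicate 3 and all 6 WT arrays had Xist and no Y-linked signal. The FSAP-deficient ligated arrays lay on 1 slide and the WT ligated arrays on 2 others, so no slide held both. The share of spots well above background ran from 54.5% to 62.3% over all arrays. The median SD of a gene was 0.24 among the WT ligated livers and 0.28 among the FSAP-deficient ones. Between arrays the correlation was 0.978 to 0.982 within WT, 0.971 to 0.982 within FSAP-deficient and 0.961 to 0.981 across genotypes.

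After ligation, the 7 tested MHC class II genes rose without FSAP, as did 2 interferon-induced genes (Gbp4 and Ifi44) and 2 chemokines (Ccl8 and Ccl12). Habp2, the protease inhibitor Timp4, the bile acid exporter subunit Slc51b and 3 genes of urea and amino acid metabolism (Got1, Arg1 and Asl) fell. In numbers, 66 of 18706 genes changed (0.353%), of which 38 rose (0.203%) and 28 fell (0.15%). The measured rises ranged from 0.75 to 3.68 on the log2 scale with a median of 1.76, and the falls had a median of -1.63. The value of 3.68, for Pdcd1, was measured against WT readings that were not well above background. With arrays scaled to their median instead, 80 genes changed, 34 up and 46 down, so the share of rises was 42.5% in place of 57.6%. At least 2-fold differences made up 31 of the rises and 26 of the falls, and 58 of the changed genes carry a gene symbol. Without a multiple-testing correction, 2479 genes had p under 0.05. The 3 genes closest under the threshold were Nes, H4c14 and Crcp (adjusted p = 0.0498), and the 3 closest above it were Itgb7 (adjusted p = 0.0502), ENSMUST00000051043 and Ppfia4.

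The number of calls depended on single mice and on the model. Without WT ligated replicate 1 there were 6 calls, without replicate 2 there were 136 and without replicate 3 there were 145. Without FSAP-deficient ligated replicate 1 there were 12 calls and without replicate 3 there were 33, and without FSAP-deficient sham replicate 1 there were 132. With the 6 ligated arrays alone in the model, 3 genes passed (0.016%), namely Habp2, its second probe and Myom3. With slide as a fixed block 2 passed and as a random block 10. Without the 3 arrays with Y-linked signal, which leaves 1 FSAP-deficient ligated mouse assumed to vary like the other groups, 147 genes passed, 23 of them among the 66. Both Habp2 probes were called in each of the 6 models that left out 1 ligated mouse, as were Ube2v2, Pard6g, Csn3 and LOC100041034, while 6 genes (Slc51b, Arg1, Gtf2h5, H4c14, Atf7 and ENSMUST00000079084) were called in none of those models.

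Ranked by separation rather than by size, 2950 genes (15.8%) had non-overlapping genotypes, 1248 (6.67%) higher and 1702 (9.1%) lower without FSAP. All 66 changed genes were among them. With 3 mice against 3 the exact two-sided permutation test cannot go below p = 0.1, so separation is a description. Counts of list members without overlap, given below, are to be read beside these shares of 6.67% and 9.1%. A gap above 1, meaning that the nearest mice of the genotypes differed at least 2-fold, was found for 60 higher and 26 lower genes, of which 36 in total had changed by the test. After the Habp2 probes, the widest gaps belonged to Timp4 (2.94), Myom3 (2.84), Pdcd1 (2.69) and Csn3 (2.61). For Pdcd1 the gap was measured from WT readings that were not well above background.

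**Figure D1:**
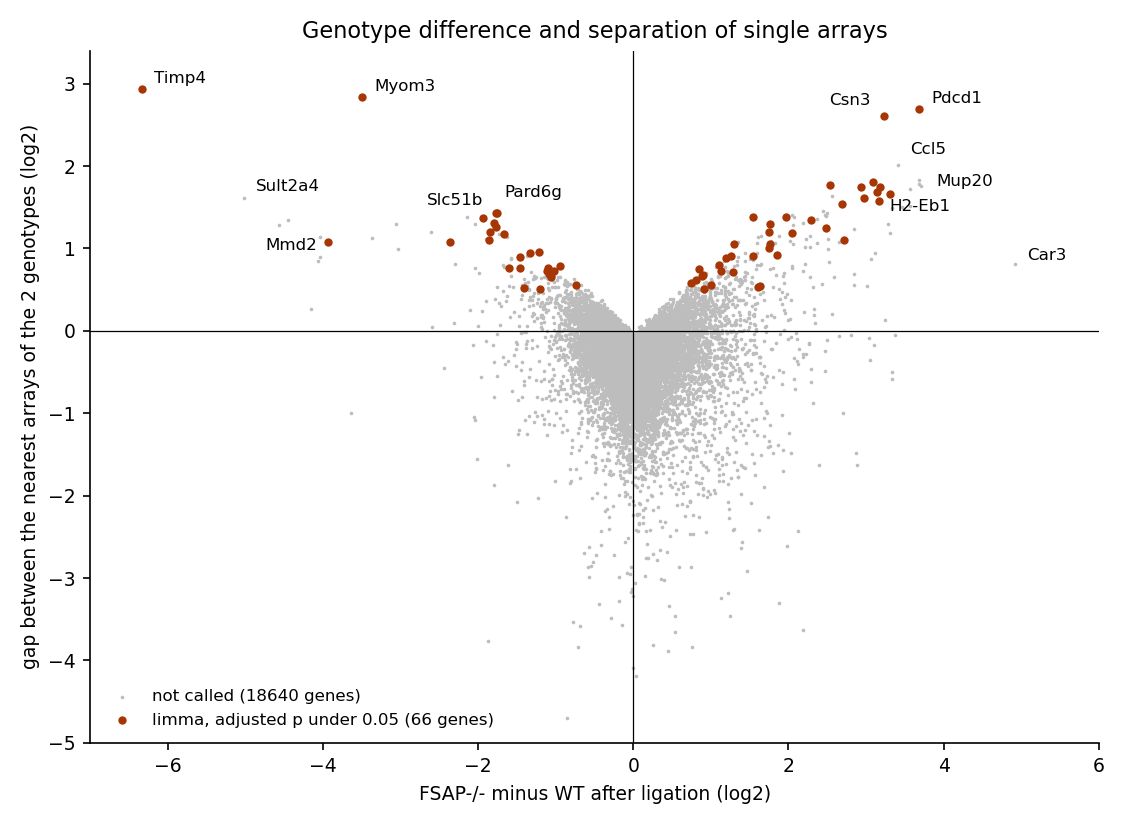
Each point is 1 gene, with the log2 difference of FSAP-deficient minus WT ligated livers (means of 3 arrays each) on the x axis and the log2 gap between the nearest arrays of the genotypes on the y axis, where values above 0 mean no overlap. The 66 changed genes (dark points) lie above 0, Timp4, Myom3, Pdcd1 and Csn3 have the widest gaps, and Ccl5, Mup20, Sult2a4 and Car3 stand apart without passing the test. The 2 Habp2 probes lie beyond the x axis and are not drawn.

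The genes of MHC class II, whose products show peptides from engulfed proteins to CD4+ T cells, were the list with the most rises. Dendritic cells, macrophages and B cells carry them constitutively or after interferon-gamma, and the coactivator CIITA switches them on together through a shared promoter module. Of 11 listed members 7 could be tested, and 7 of 7 rose, by a median of 2.98 against -0.03 over all genes tested. H2-Ab1, H2-Aa, H2-Eb1, H2-DMb1 and H2-DMa lie close together on chromosome 17, so their rises come from neighbouring sequence. A shared cause was not tested. H2-Ab1 (17:34406305-34406363, mm9), the beta chain of I-A, read 2.61, 1.53 and 2.57 in WT and 6.36, 5.05 and 4.23 in FSAP-deficient ligated livers, so the lowest FSAP-deficient mouse was above the highest WT mouse by 1.62. That is a 7.88-fold rise (log2 difference 2.98, SE 0.47, limma, adjusted p = 0.0353), and a second H2-Ab1 probe gave 2.93. Ciita itself was well above background on 2 FSAP-deficient and 0 WT ligated arrays and was not tested. H2-Oa, H2-Ob and H2-DMb2 were likewise too dim.

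The chains and helpers of class II rose to different extents. H2-Aa, the alpha chain of I-A, read -3.65, -3.96 and -3.02 in WT and 0.79, -0.48 and -1.44 in FSAP-deficient livers, a rise of 3.17. H2-Eb1 and H2-Ea, the chains of I-E, rose by 3.14 and 3.09, and H2-Ea was well above background on 2 of the 3 WT arrays. Cd74, the invariant chain that guides class II molecules through the cell, rose by 2.72, from 2.68, 1.43 and 2.19 to 5.73, 4.93 and 3.79. The peptide loaders H2-DMb1 and H2-DMa rose by 2.93 and 1.74. In each of the 7 genes replicate 1 was the highest and replicate 3 the lowest of the FSAP-deficient mice, and the list's median stood 4.13, 2.82 and 2.07 above the WT mean on these arrays.

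The sham livers put these levels in context. H2-Ab1 read 3.53, 3.52 and 2.97 in WT sham livers and 2.17, 2.55 and 2.50 in FSAP-deficient sham livers, so that the WT ligated values lay below those of WT sham livers and the FSAP-deficient ligated values above every other group. The difference between genotypes in sham had the opposite sign for 7 of 7 class II genes, with a list median of -0.87, and none of the 7 passed the test of the interaction of genotype and ligation (for H2-Ab1, limma, adjusted p = 0.0857). Without WT ligated replicate 1, 0 of the 7 class II genes were called, and without FSAP-deficient ligated replicate 1 or 2, 1 was. Without WT ligated replicate 2 or 3, 5 were called. With slide as a fixed block the list's median was 3.24 with 0 calls (adjusted p from 0.598 to 0.723), with slide as a random block 2.97 with 0 calls, and without the arrays with Y-linked signal 2.07 with 0 calls.

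**Figure D2:**
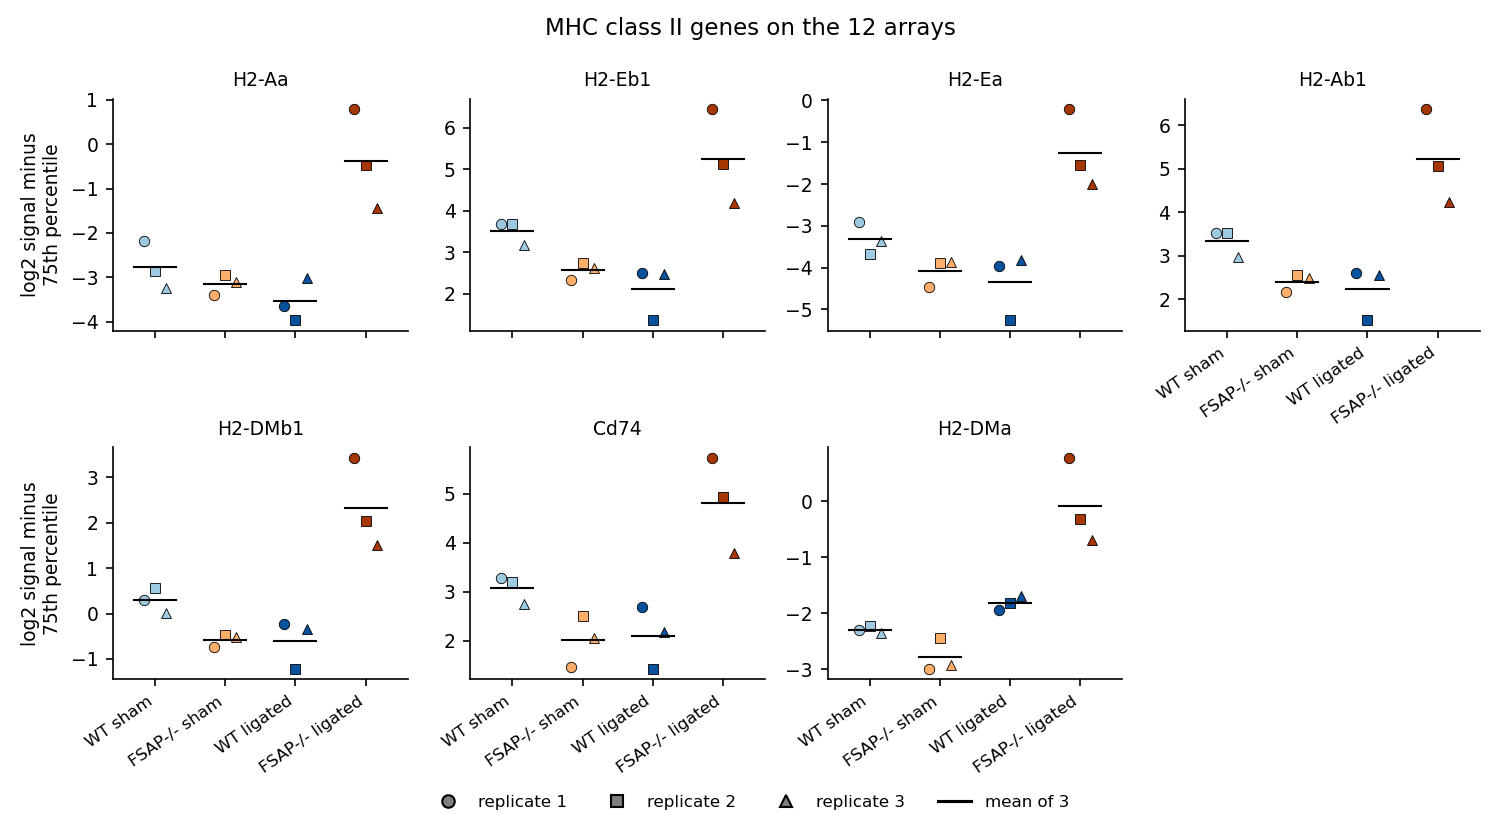
Each panel shows 1 MHC class II gene on the 12 arrays, with the log2 signal minus the array's 75th percentile on the y axis and the 4 groups on the x axis. Points are mice, with circles, squares and triangles for replicates 1, 2 and 3, and bars are means of 3. In all 7 panels the 3 FSAP-deficient ligated mice lie above the 3 WT ligated mice, and replicate 1 is the highest of them.

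Since the class II genes moved together, the 150 bases before their start sites are shown for 3 of them, taken from RefSeq's GRCm38.p6 promoter table. Of the 7 genes 4 were matched to it (H2-Aa, H2-Eb1, H2-DMb1 and H2-DMa) and H2-Ab1, H2-Ea and Cd74 were not. Capitals mark GATTGG or its reverse complement CCAATC, the core of the Y box that the factor NF-Y binds, searched on both strands with no overlap with another motif. H2-Aa lies on the minus strand at 17:34287824-34287973, H2-Eb1 on the plus strand at 17:34305717-34305866 and H2-DMb1 on the plus strand at 17:34153041-34153190, each written 5′ to 3′ in the gene's own direction.
H2-Aa: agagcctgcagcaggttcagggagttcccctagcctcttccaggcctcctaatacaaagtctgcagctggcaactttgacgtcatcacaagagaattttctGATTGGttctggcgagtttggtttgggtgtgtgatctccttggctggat
H2-Eb1: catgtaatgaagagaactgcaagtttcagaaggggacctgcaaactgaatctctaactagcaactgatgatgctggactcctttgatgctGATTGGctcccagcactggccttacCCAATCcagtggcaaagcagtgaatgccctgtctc
H2-DMb1: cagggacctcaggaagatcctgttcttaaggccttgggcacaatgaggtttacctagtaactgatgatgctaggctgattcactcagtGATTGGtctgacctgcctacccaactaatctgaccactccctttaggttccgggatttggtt
The motif starts 49 bases before the H2-Aa start, 60 and 35 bases before the H2-Eb1 start and 62 bases before the H2-DMb1 start. Neither of the 2 entries for H2-DMa holds these letters in the window. Of the 32851 promoters in the table, 3595 (10.9%) hold the motif in the same 150 bases, and a match is a description of sequence, not of binding.

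The class II genes can be read beside the markers of the cells that carry them. Of 14 dendritic cell markers 10 were tested, none was called, 4 were higher without overlap and the median was 0.66. Their summed level on a linear scale, in units of the array's 75th percentile, ran from 59.5 to 74.8 in WT and from 61.9 to 79.6 in FSAP-deficient livers, and Siglech and Bst2 were the brightest members. Without these 2 the sum was 2.38 to 2.69 in WT and 3.25 to 4.73 in FSAP-deficient livers, with no overlap. Irf8, Batf3, Clec10a and Ccr7 were the members higher without overlap (differences 0.65, 0.66, 0.91 and 1.37), while Xcr1, Itgae, Cd209a and Ccl22 were not well above background on any ligated array. Of 32 macrophage and monocyte markers 31 were tested, 1 rose, 13 were higher and 2 lower without overlap, the median was 0.45, and the summed level ran from 269 to 300 in WT and from 325 to 362 in FSAP-deficient livers. Of 21 B cell and plasma cell markers 12 were tested, none was called and the median was 0.05, with a summed level of 65.4 to 72.9 in WT and 49.0 to 55.0 in FSAP-deficient livers. Xbp1 and Sdc1, which hepatocytes also express, were its brightest members, and without them the sum was 1.42 to 1.77 in WT and 1.89 to 2.40 in FSAP-deficient livers, the opposite order. These sums without the 2 brightest members were added after the values were seen. The defining B cell genes Ms4a1, Cd79a and Pax5 were not well above background on any of the 6 ligated arrays. The part of these cells in the class II rise was not tested. Of 17 genes of MHC class I and peptide loading none was called, 5 were higher without overlap and the median was 0.32.

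Among the macrophage markers Itgax, the integrin CD11c, rose by 1.85. It read -2.57, -2.20 and -1.78 in WT and 0.24, -0.86 and -0.39 in FSAP-deficient livers, 3.6-fold higher without overlap (limma, adjusted p = 0.0468). Resident macrophage genes did not follow one direction: Clec4f and Timd4 of Kupffer cells differed by 0.34 and 0.55 and overlapped, and Cd163, a scavenger receptor for haemoglobin, was lower without overlap (difference -1.58, adjusted p = 0.215). Clec7a, the fungal glucan receptor dectin-1 of myeloid cells, rose by 1.76, from 1.1, 0.49 and 1.16 to 3.02, 2.22 and 2.79. Slamf9, a receptor of macrophages and dendritic cells, rose by 1.76 and Acod1, the enzyme that makes itaconate in activated macrophages, by 2.48. Lgals1, galectin-1, rose by 1.63.

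Interferon-induced genes were higher as a group, with 2 of 36 tested members called, both rises, 19 higher and 0 lower without overlap and a median of 0.88. Gbp4, a guanylate-binding protein of the interferon-gamma response, read -3.69, -3.16 and -2.64 in WT and 1.41, -0.99 and -0.02 in FSAP-deficient livers. It rose 9.86-fold (log2 difference 3.30, SE 0.58, limma, adjusted p = 0.0468). Ifi44 rose by 2.05, from -2.03, -2.15 and -1.61 to 0.69, -0.43 and 0.10, and Oas1f of the oligoadenylate synthetase family, which is not on the list, by 1.20. Cxcl9 and Cxcl10, chemokines that attract activated T cells, were higher by 3.11 and 2.27 without overlap and did not pass (adjusted p = 0.135 and 0.159). The list's median stood 1.77, 0.46 and 0.49 above the WT mean on replicates 1, 2 and 3. Without FSAP-deficient replicate 1 the list's median was 0.44, and without the arrays with Y-linked signal 0.49. In sham livers 33 of the 36 members were lower in FSAP-deficient mice, with a median of -0.46.

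Chemokines of monocytes and T cells were among the rises. Of 32 tested cytokines, chemokines and receptors 2 rose, 9 were higher and 1 lower without overlap, and the median was 0.46. Ccl8, a chemokine that attracts monocytes and T cells, read -3.19, -4.01 and -3.02 in WT and 0.80, -1.27 and -0.20 in FSAP-deficient livers, 9.10-fold higher (log2 difference 3.19, SE 0.49, limma, adjusted p = 0.0353). Its neighbour Ccl12 rose by 1.75. Ccl5, the chemokine RANTES of T cells and macrophages, had the widest gap of any gene that did not pass: -1.30, -2.20 and -1.63 in WT against 3.54, 0.72 and 0.83 (difference 3.41, gap 2.02, adjusted p = 0.0587). The monocyte chemokine Ccl2 did not separate the genotypes (difference 0.25), and Cxcl13, which attracts B cells, was lower without overlap (difference -1.18, not called).

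Pdcd1, which encodes the inhibitory receptor PD-1 of activated T cells, had the largest measured difference among the called rises. None of the WT ligated arrays was well above background for it (-6.63, -7.16 and -6.63) whereas all 3 FSAP-deficient ones were (-1.99, -3.94 and -3.45). The gene thus passed the background filter through the FSAP-deficient arrays alone, and its test set them against background readings. The rise was at least 4.04-fold (1:95935064-95935123, mm9; measured log2 difference 3.68, limma, adjusted p = 0.0302). Of the T and NK cell markers 19 could be tested, of which 1 rose, 7 were higher and 1 lower without overlap, with a median of 1.08. Among the higher ones, Cd3g and Il2rb were not well above background on any WT ligated array. The called gene was Cd2, an adhesion receptor of T and NK cells, which rose by 1.96. It read -5.13, -5.28 and -4.81 in WT and -2.73, -3.43 and -3.16 in FSAP-deficient ligated livers. Of the 3 WT ligated arrays 1 was well above background for Cd2. In sham livers it read -2.81, -2.95 and -2.84 in WT and -4.61, -3.03 and -3.32 in FSAP-deficient mice. The chains of the CD3 complex differed among themselves. Cd3g was at least 4.01-fold higher and Cd3d was higher by 2.05, both without overlap and without a call, and Cd3e differed by 0.10. Cd4 differed by -0.25 and Cd28 by -1.45, and Cd8a was well above background on 1 ligated array and was not tested. The summed level of the list was 33.5 to 63.2 in WT and 29.2 to 43.5 in FSAP-deficient livers, and without its 2 brightest members, Cd4 and Zap70, it was 4.66 to 6.88 and 5.94 to 10.8. Replicate 1 of the FSAP-deficient group held the highest median (2.05, against 0.47 and 0.67). Klrb1c, Klrk1 and Ncr1 of NK cells were not well above background on any ligated array.

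Map4k1, a kinase of blood cells, rose by 1.28. Sema4d, a semaphorin of T cells, rose by 1.55, from -3.34, -3.57 and -3.32 to -1.72, -1.92 and -1.94. The 3 FSAP-deficient ligated mice lay within a narrow band for Sema4d. In sham livers Sema4d went the other way (difference -1.53), and it was 1 of 2 genes that passed the interaction test.

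Csn3, the milk protein kappa-casein of the casein family, was called in each model that left out 1 ligated mouse. It read -5.67, -4.81 and -4.75 in WT and -1.41, -2.14 and -2.0 in FSAP-deficient ligated livers (5:88361449-88361508, mm9), and between -6.58 and -5.40 on the 6 sham arrays. The rise was 9.35-fold (log2 difference 3.23, SE 0.35, limma, adjusted p = 0.00636), and Csn3 was well above background on 2 of the 3 WT ligated arrays. Apol10b, an apolipoprotein L, rose by 2.69 and was well above background on 1 WT ligated array. Leap2, a liver peptide that blocks the ghrelin receptor, read 0.05, -0.36 and 0.04 in WT and 1.94, 1.47 and 0.96 in FSAP-deficient ligated livers, against 4.13 to 4.81 on the sham arrays. It thus rose by 1.54 without FSAP and was below the sham level in both ligated genotypes. Smaller rises were measured for Cdt1, a licensing factor of DNA replication (1.61), Phlda3, a p53 target (1.13), the transcription factor Atf7 (1.1), the intermediate filament Nes (0.99), Gatm of creatine synthesis (0.91) and the histone H4 genes H4c4 (0.85) and H4c14 (0.75). Histone H4 genes encode the same protein and are alike in sequence, so their probes may share signal, and a second Atf7 probe gave 0.66.

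**Figure D3:**
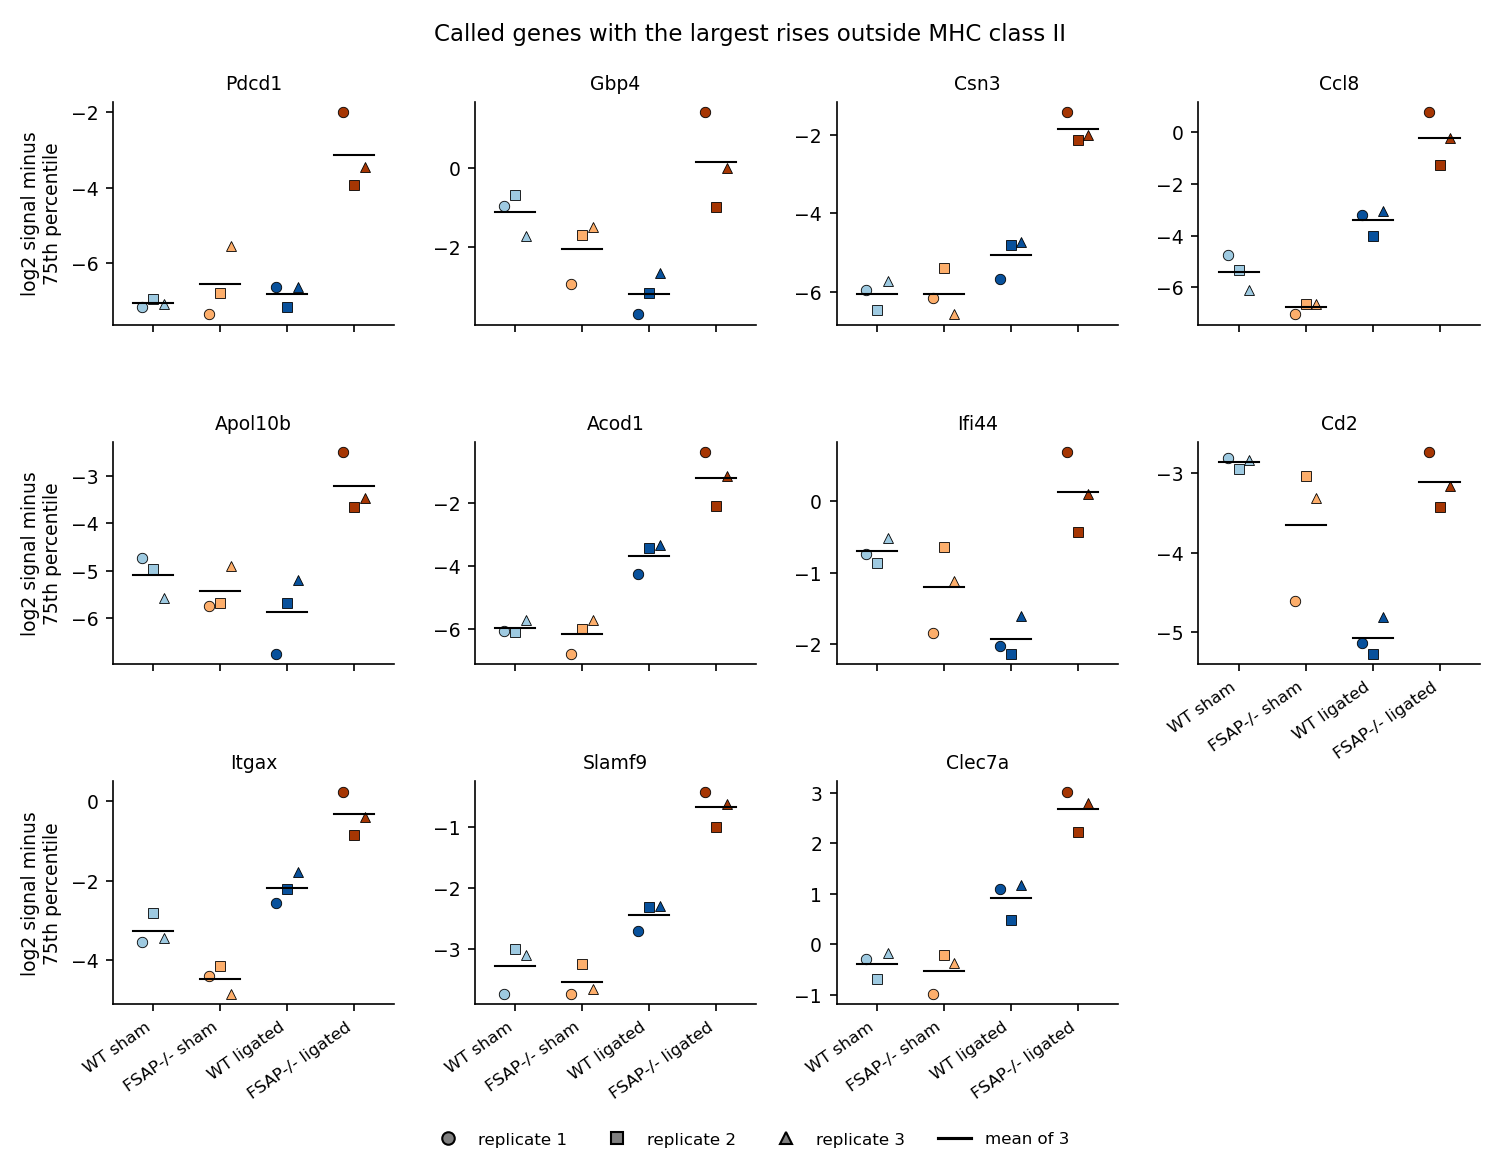
Each panel shows 1 of the largest called rises outside MHC class II among the genes reported here, with the log2 signal minus the array's 75th percentile on the y axis and the 4 groups on the x axis. Points are mice (circle, square and triangle for replicates 1, 2 and 3) and bars are means of 3. Replicate 1 is the highest FSAP-deficient ligated mouse in each panel, and no FSAP-deficient ligated mouse overlaps a WT ligated mouse.

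Beyond Habp2, the largest fall was that of Timp4, an inhibitor of matrix metalloproteinases. In WT ligated livers it read 2.51, 3.09 and 0.13, and in FSAP-deficient ligated livers -6.36, -2.81 and -4.11, of which the first was not well above background. None of the 6 sham arrays was well above background for Timp4. The fall was 80.8-fold (6:115196120-115196179, mm9; log2 difference -6.34, SE 0.85, limma, adjusted p = 0.0284), and the values of single mice were spread widely within each genotype. Timp4 kept its call in 5 of the 6 models that left out 1 ligated mouse and lost it with slide as a fixed block (difference -5.92). Of the other matrix enzymes and inhibitors none was called: of 26 tested members, 4 were higher and 1 lower without overlap, and the median was 0.54. Timp1, the inhibitor best known from fibrotic liver, overlapped between genotypes, at 0.59, 3.73 and 1.12 in WT and 1.96, 1.99 and 5.52 without FSAP (difference 1.34, adjusted p = 0.591).

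Many of the falls concerned genes that stood far above the sham level in WT ligated livers and less far above it without FSAP. Myom3, a protein of the muscle M band, read 2.83, 2.87 and 2.58 in WT ligated livers and -1.18, -0.27 and -0.78 in FSAP-deficient ones, with sham values from -4.78 to -2.14. It fell 11.3-fold (4:135371377-135371436, mm9; log2 difference -3.50, SE 0.56, limma, adjusted p = 0.0353). Syn2, the synaptic vesicle protein synapsin II, fell by 2.37 on the log2 scale, from -0.74, -1.02 and -1.86 to -4.55, -3.23 and -2.94. Its sham values ran from -6.96 to -5.74, and a second Syn2 probe gave -2.69. The brighter Syn2 probe (6:115226390-115226449, mm9) lies close to that of Timp4, so these 2 falls come from neighbouring sequence. A shared cause was not tested. Ctsj, a cathepsin known from placenta, fell by 1.61. Ube2v2, a partner of the ubiquitin-conjugating enzyme Ubc13, read 4.53, 5.18 and 4.75 in WT and 2.85, 3.03 and 3.26 in FSAP-deficient livers, against 1.73 to 2.04 in sham. Its fall of 1.77 had an adjusted p of 0.00377, and of 2 further probes 1 gave -1.80 and the other -0.23. Pard6g, a polarity protein of the PAR6 family, also fell by 1.77 (adjusted p = 0.00141), from 1.94, 2.06 and 1.59 to -0.00, 0.17 and 0.12, with sham values from -2.46 to -1.98. For these 5 genes every ligated mouse of either genotype lay above every sham mouse.

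Other falls of this kind were Neu3, a sialidase of the plasma membrane (-1.33), Oscar, an immunoglobulin-like receptor of osteoclasts and myeloid cells (-1.21), Chst8, a sulfotransferase of N-glycans (-1.12), and Crcp, a subunit of RNA polymerase III (-1.40). Neu3 read 0.79, 0.78 and 0.61 in WT ligated, -0.64, -0.85 and -0.33 in FSAP-deficient ligated and between -3.50 and -2.61 in sham livers. Pwwp3a fell by 1.22 at its brightest probe, while a second probe differed by 0.09, so the direction for that gene rests on 1 probe. Gm3459 and Gm2045, predicted genes on chromosomes 10 and X, fell by 1.84 and 1.66 with nearly the same values on every array, and a shared sequence cannot be told apart from separate genes here.

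Slc51b, the beta subunit of the basolateral bile acid exporter OST that hepatocytes use when bile cannot leave by the canaliculus, fell by 1.75. It read 1.15, 1.26 and 1.44 in WT ligated, -0.81, -0.28 and -0.31 in FSAP-deficient ligated and between -2.72 and -1.33 in sham livers (9:65260705-65260764, mm9). The fall was 3.37-fold without overlap (limma, adjusted p = 0.0457), and it was lost when any 1 of the ligated mice was left out. For Slc51a, the alpha subunit, none of the 12 arrays was well above background. Of 21 tested genes of bile and organic anion transport 1 fell, 6 were lower and 0 higher without overlap, and the median was -0.38. Abcb11, the canalicular bile salt export pump, differed by -0.74 (adjusted p = 0.118), and the uptake carrier Slc10a1 by -0.07. Of the 23 genes of bile acid synthesis none was called, and Cyp7a1, the rate-limiting enzyme, overlapped between genotypes (2.69, 2.33 and 3.26 against 3.02, 2.77 and 2.52).

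Transcripts of the urea cycle and amino acid metabolism were mostly lower in whole liver without FSAP. Of 38 tested genes of the urea cycle and amino acid metabolism 3 fell and none rose, 18 were lower and 0 higher without overlap, 37 of the 38 differences were below 0, and the median was -0.65 against -0.03 over all genes. Got1, the cytosolic aspartate aminotransferase, read 5.83, 6.20 and 6.01 in WT and 3.78, 4.33 and 4.52 in FSAP-deficient ligated livers, and between 4.91 and 5.85 in sham livers. It fell 3.48-fold (19:43574278-43574337, mm9; log2 difference -1.80, SE 0.24, limma, adjusted p = 0.0284). Arg1 and Asl, arginase and argininosuccinate lyase of the urea cycle, fell by 1.02 and 1.06. The Asl probe (5:130487964-130488549, mm9) lies close to that of Crcp (5:130536507-130536566), which also fell. Arg1 read 6.04, 6.09 and 5.92 against 4.98, 5.19 and 4.81, and Asl 5.17, 5.41 and 5.10 against 4.04, 4.45 and 4.0. Cps1, the enzyme that starts the cycle, was lower without overlap and not called (difference -0.79), and Otc, the next enzyme, overlapped (difference -0.04). Gldc, the glycine decarboxylase, fell by 1.08.

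The amino acid genes were lowest in the FSAP-deficient mouse without Y-linked signal, with list medians of -0.43, -0.37 and -1.01 on replicates 1, 2 and 3 relative to the WT mean. The median was -0.42 without FSAP-deficient replicate 3 and -1.01 without the arrays with Y-linked signal. With slide as a fixed block it was -0.59. Hepatocyte markers as a list had a median of -0.24, with 0 of 28 called and a summed level of 4081 to 6904 in WT and 3777 to 5093 in FSAP-deficient livers. Alb, albumin, overlapped between genotypes (9.51, 9.27 and 8.89 against 9.37, 9.20 and 8.68). The part of hepatocyte content in the amino acid genes was not tested.

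Hsd17b6, Mmd2 and Celsr1 fell as well, and so did LOC635992, a locus without a gene name (-1.94). Hsd17b6, a retinol and steroid dehydrogenase, read 1.33, 1.02 and 1.62 in WT and 0.11, -0.29 and -0.26 in FSAP-deficient ligated livers, with sham values from 2.01 to 3.06, and fell by 1.47. Mmd2, a membrane protein of the PAQR family, fell by 3.94, from -1.54, -2.10 and -3.61 to -4.70, -7.25 and -7.13, and was well above background on 1 of the 3 FSAP-deficient arrays. For these 2 genes both ligated genotypes lay below the sham level. Celsr1, a cadherin of planar cell polarity, read 1.89, 1.56 and 2.03 in WT and -0.40, -0.14 and 0.45 in FSAP-deficient ligated livers and fell by 1.86. The WT ligated values were above and the FSAP-deficient ligated ones below the WT sham values of 1.03 to 1.34. FSAP-deficient sham livers, at 0.75, 0.26 and 0.94, were also below the WT sham values (difference -0.55, not called).

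**Figure D4:**
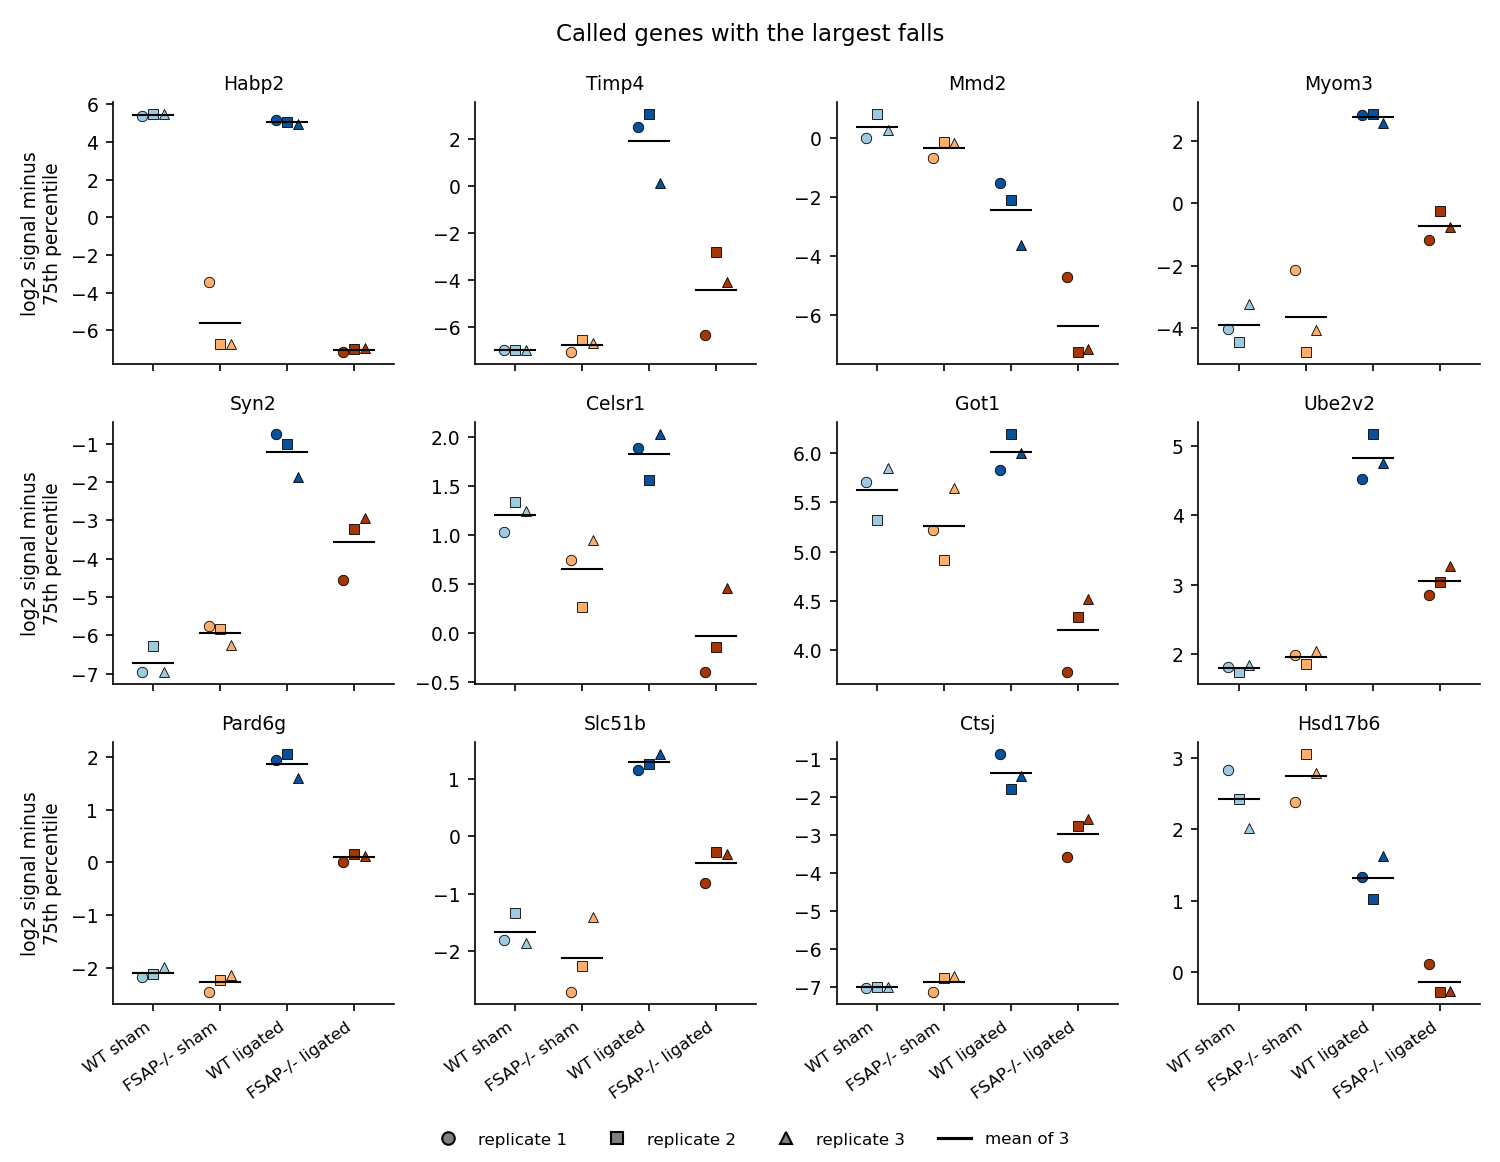
Each panel shows 1 of the 12 largest called falls with a gene symbol, with the log2 signal minus the array's 75th percentile on the y axis and the 4 groups on the x axis. Points are mice (circle, square and triangle for replicates 1, 2 and 3) and bars are means of 3. In Timp4, Myom3, Syn2, Ube2v2, Pard6g, Slc51b and Ctsj the FSAP-deficient ligated mice lie between the sham groups and the WT ligated mice, and Habp2 is at the background in FSAP-deficient ligated livers.

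Acute phase genes, which hepatocytes release into blood during inflammation, were lower in 28 of 30 cases, with a median of -0.70, but none was called and 5 were lower without overlap. Lbp, the lipopolysaccharide-binding protein, read 5.21, 4.63 and 5.18 in WT and 2.64, 4.11 and 4.10 in FSAP-deficient livers (difference -1.39, adjusted p = 0.158), and serum amyloid P (Apcs) differed by -1.41. Coagulation and fibrinolysis genes other than Habp2 gave no call, with a median of -0.32 over the 36 tested. Neutrophil markers had a median of -0.32 and no call, and their per-array medians were spread from -0.66 to 1.03 among the WT mice alone.

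The series title concerns liver fibrosis, and the genes of scar formation gave no call apart from Timp4. Collagens had a median of 0.79 with 0 of 16 called, 1 higher and 1 lower without overlap. Over all genes tested, 6.67% were higher and 9.1% lower without overlap. Col1a1, which encodes a chain of type I collagen, read 0.85, 2.75 and 2.97 in WT and 3.41, 2.92 and 4.92 in FSAP-deficient livers, which overlap (difference 1.56, SE 0.61, limma, adjusted p = 0.304). Col3a1 was higher without overlap (difference 2.03, adjusted p = 0.146), and Col18a1, of basement membranes, was lower without overlap (-0.46). Acta2, the smooth muscle actin of activated stellate cells, differed by 1.48 with overlap (adjusted p = 0.269). Stellate cell and myofibroblast markers had a median of 0.63 with 0 of 23 called and 4 higher without overlap, among them Cygb (0.79) and Tagln (0.69).

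In these lists WT ligated replicate 1 stood apart from the other WT mice. The collagen median was -0.91 on that array and 0.52 and 0.55 on WT replicates 2 and 3, against 0.56, 0.53 and 1.38 on the FSAP-deficient arrays. Without WT replicate 1 the collagen median was 0.48 and that of myofibroblast markers 0.36, and with slide as a fixed block they were 0.49 and 0.43. Bile duct markers did not follow genotype: 0 of 24 cholangiocyte markers were called, the median was 0.12, and the bile duct keratin Krt19 overlapped (0.20, -0.35 and 1.40 against 0.30, 1.56 and 0.52).

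Cell cycle genes were higher on average and overlapped. Their median was 1.29 with 0 of 38 called. Of the 38, 3 were higher without overlap, where 6.67% of all genes tested were. The per-array medians were -1.33, 1.79 and -0.37 in WT and 1.18, 1.58 and 0.98 in FSAP-deficient livers, so WT replicate 2 lay above the 3 FSAP-deficient mice. The median was 0.53 without WT replicate 1 and 2.29 without WT replicate 2. Cdt1 was the replication gene that rose, and it is not on the list.

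**Figure D5:**
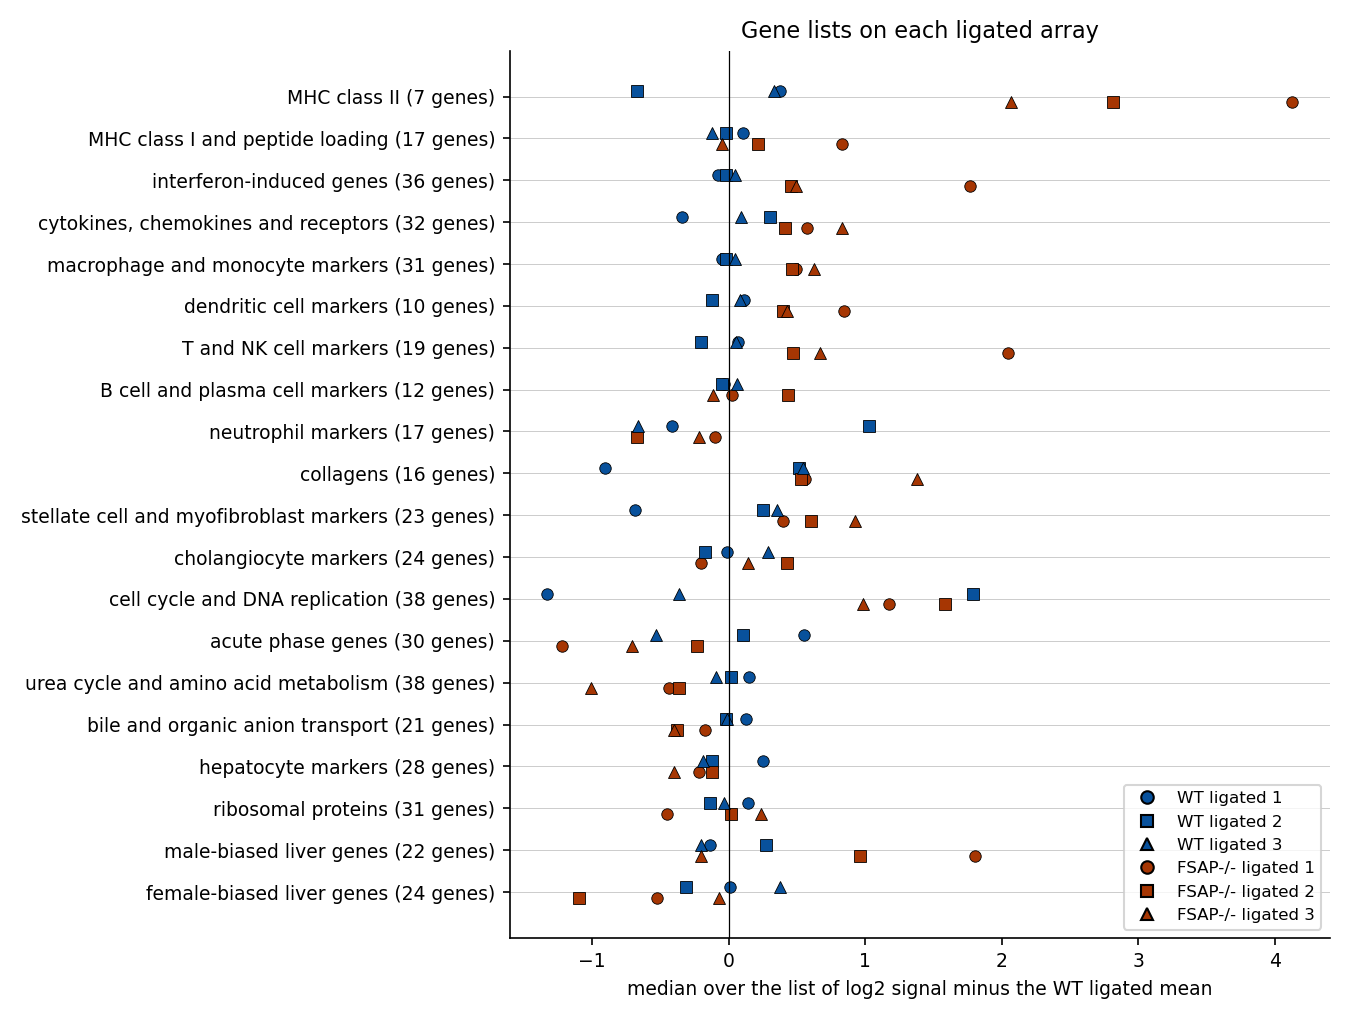
Each line is 1 gene list with the number of genes tested, and each point is the median over that list of the log2 signal minus the WT ligated mean of each gene, for 1 ligated array (blue for WT, brown for FSAP-deficient, and circle, square and triangle for replicates 1, 2 and 3). MHC class II medians of the FSAP-deficient arrays are 4.13, 2.82 and 2.07, collagens and cell cycle genes spread as widely within WT as between genotypes, and male-biased genes are higher on FSAP-deficient replicates 1 and 2 alone.

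The genes that separated the mice widely without passing the test included families known to differ between male and female liver. Some of the major urinary proteins, a family that males make in larger amounts, were higher without overlap. Mup20 read 1.19, 2.74 and 3.01 in WT and 8.14, 5.02 and 4.84 in FSAP-deficient livers (difference 3.69, gap 1.84, limma, adjusted p = 0.0983). Mup2 overlapped, at 1.39, 0.07 and -1.34 in WT and 6.25, 1.29 and -0.25 in FSAP-deficient livers (difference 2.39). The Mup-ps3, Mup-ps10 and Mup-ps12 probes gave 3.68, 3.56 and 3.70, and since members of the family are near-identical, the probes may measure each other. Sult2a1 and Sult2a2, of a sulfotransferase family that females make in larger amounts, were lower without overlap. Sult2a1 read 4.58, 3.53 and 5.16 in WT and -0.01, -2.69 and 2.24 in FSAP-deficient livers (difference -4.57, limma, adjusted p = 0.356). In sham livers Sult2a1 stood at -2.80, 3.54 and 7.0 in FSAP-deficient mice, with the lowest value on the array that had Y-linked signal. Male-biased genes as a list had a median of 0.94, with per-array medians of 1.80, 0.96 and -0.20 on FSAP-deficient replicates 1, 2 and 3, so the arrays with Y-linked signal were high and the third was at the WT level. Without the arrays with Y-linked signal the list's median was -0.20. Female-biased genes as a list had a median of -0.29, with differences in both directions. Over the alternatives that median ran from -1.44 to 1.31. Sult1e1, the estrogen sulfotransferase, and Nnmt, nicotinamide N-methyltransferase, were lower without overlap by 3.07 and 3.37 (adjusted p = 0.198 and 0.0745).

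The difference between genotypes in ligated livers was set beside that in sham livers, which shares no array with it. Of the 38 rises, 31 had a difference below 0 in sham, with a median of -0.42, where 44.2% of all genes tested were below 0. Of the 28 falls, 19 were above 0 in sham and 9 below, with a median of 0.14. In sham 2 genes were called (0.0107%), both of them Habp2 probes, and 1428 had an unadjusted p under 0.05. The interaction, which tests whether the genotype difference depends on ligation, was called for 2 genes (0.0107%), Sema4d and LOC100041034, and 2588 had an unadjusted p under 0.05. The Habp2 probes differed by -11.09 and -6.80 in sham. Chromosome 19, which carries Habp2, held 5 of the 66 changed genes (7.58%) and 628 of the genes tested (3.36%). Without the 2 Habp2 probes it held 3 of 64 (4.69%), and Got1 is among these 3. Chromosome 17, which carries H2-Ab1, H2-Aa, H2-Eb1, H2-DMb1 and H2-DMa, held 9 of the 66 changed genes and 939 of the genes tested. The part of sequence inherited with the null allele, or left from the strain in which it was made, was not tested.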

How the data were processed

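Liver RNA of 12 mice, 3 per group and 1 array each, was measured on 1-colour Agilent mouse arrays. Per the file headers, the deposited intensity of each spot came from Feature Extraction 10.5.1.1 with protocol GE1_105_Jan09, background-subtracted and not scaled between arrays. The deposited log2 table of the series, made by a method that no source used here gives, served as an alternative. Here log2 of the processed signal was taken minus the array's 75th percentile. Control spots and 79 outlier values were left out, and each symbol was represented by its brightest probe. Genes passing the background filter on 3 or more of the 6 ligated arrays were fitted with limma 3.58.1 in R 4.3.3 (4 group means, 12 arrays, 8 residual degrees of freedom). Benjamini-Hochberg adjustment ran over 18706 genes at 0.05. Where no array of a group was well above background, a fold is a bound against the higher of the probe's signal and the array's lowest signal well above background. On simulated data, 57.5% of changes of 1, 91.2% of 2 and 100% of 3 log2 units were called. These were independent normal values with the spread that the model had fitted. They held no slide difference, Y-linked difference, outlying mouse or background floor, so the shares do not measure the power on the real arrays. The number of arrays limits the precision.

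Of 33063 probes with a RefSeq accession 26412 matched the table, which changed 3093 symbols. Genes were named where they were among the 12 largest called differences or the 12 widest gaps in each direction, led a list or were reference genes. The rest of the called genes, and further list members, were named after their values were seen, and some genes are not reported here. The comparison, its members and the 44 lists were chosen with earlier results of these data known. The main model assumed no pairing of mice by replicate number. Alternatives covered background correction, scaling, filters, probes, slide, Y-linked signal, the replicate block and each mouse left out.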

Additional observations from a re-analysis of the deposited data

Results flagged for a closer look

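For 2 genes the genotype difference after ligation differed from that in sham livers by the interaction test of the same limma model. Sema4d differed by 1.55 after ligation and by -1.53 in sham, an interaction of 3.08 on the log2 scale (limma, adjusted p = 0.0202), and it read -3.50, -4.20 and -3.89 in WT sham and -5.61, -4.89 and -5.68 in FSAP-deficient sham livers. LOC100041034, an uncharacterised locus that the files place on unplaced sequence of chromosome 1, differed by 1.30 after ligation and by -0.48 in sham, an interaction of 1.78 (limma, adjusted p = 0.0202). It read -2.48, -2.39 and -2.43 in WT and -1.07, -1.33 and -1.01 in FSAP-deficient ligated livers. In both genes the sign turned between the surgeries in every FSAP-deficient mouse relative to the WT mean. Between 0 and 377 genes passed the interaction test under the alternatives run.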

How the results depend on the processing

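The 66 calls became 164 with normexp background correction, 6 with no filter on dim genes, 3 with the 6 ligated arrays alone, 2 with slide as a fixed block, 10 with slide as a random block and 147 without the arrays with Y-linked signal. With the replicate block 11 genes passed and with the replicate block on the 6 ligated arrays 2. Deviations of ligated mice with the same number had correlations of -0.06, 0.05 and 0.21 for replicates 1, 2 and 3. With 3 mice per group these values cannot decide if the number pairs the mice. Leaving out 1 mouse gave 6 to 145 calls, 0 to 45 interaction calls and up to 5311 separated genes, from 4347. The 2 interaction calls became 17 with normexp, 9 with median scaling, 0 with no filter, 7 with the mean over probes, 0 with the replicate block, 377 with Y-linked signal as a covariate and 296 without those arrays. Some differences reversed, small ones and large ones. Alb gave 0.11 with quantile scaling and with the deposited table. With a mouse left out it ran from -0.31 to 0.055, the latter without FSAP-deficient ligated replicate 3. Cyp7a1 gave -0.011 with normexp, -0.093 with median scaling and -0.24 without the arrays with Y-linked signal. With a mouse left out it ran from -0.20 to 0.26. Eif2s3x gave 0.26 with the mean over probes. Krt19 ran from -0.010 to 0.86 with a mouse left out, below 0 without WT or without FSAP-deficient ligated replicate 2. Larger differences reversed where Y-linked signal was modelled or its arrays were left out. Ahsp went from 1.43 to -0.079 without these arrays, and Sult2a2 from -4.06 to 0.35 with the covariate. Xist, not well above background on these arrays, went from -3.64 to 0.90 with the covariate and 0.71 without the arrays. The causes of the reversals were not tested. Of the log2 differences of named genes under the alternatives, 2002 kept direction and side of the threshold, 310 lost and 24 gained a call. Probes not well above background limit a difference to a bound.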

Other observations

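Clock genes differed widely between single mice. Of 18 tested none was called, and the median was 0.22. Dbp, a transcription factor that cycles strongly over the day in liver, read 0.36, 0.45 and 3.45 in WT ligated and 4.45, 3.97 and 3.35 in FSAP-deficient ligated livers, while the 6 sham arrays lay between 5.5 and 5.94. Nfil3, a repressor that cycles in the opposite phase, read 2.19, 2.62 and 0.70 against 0.16, 0.28 and 0.47, so WT replicate 3 lay near the FSAP-deficient values for both genes. The hour at which livers were taken is not stated in the labels, and its part was not tested.

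Endothelial genes of the liver moved in both directions without a call. Wnt2, a signal that central vein endothelium sends to hepatocytes, read -6.57, -6.04 and -5.27 in WT and -4.52, -4.45 and -4.18 in FSAP-deficient ligated livers (difference 1.58, limma, adjusted p = 0.0579), with 1 WT array well above background. Stab2, a scavenger receptor of sinusoidal endothelium, read 3.10, 3.46 and 3.08 against 2.47, 2.57 and 2.43 (difference -0.72, adjusted p = 0.143). Sinusoidal endothelial markers as a list had a median of 0.24, with 5 higher and 1 lower without overlap among 27 tested. Car3, a carbonic anhydrase of hepatocytes, had the largest positive difference of any gene tested, 4.92, and a wide spread among FSAP-deficient ligated livers (5.95, 1.83 and -0.51, against -1.32, -3.28 and -2.88 in WT, adjusted p = 0.124).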
